A study of Rattus norvegicus with 256 samples.

Results

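Aquaporins are membrane pores, and the 8 genes described here (Aqp1, Aqp2, Aqp3, Aqp4, Aqp5, Aqp7, Aqp8 and Aqp9) were followed across 31 organs of the rat. The members were all probesets of the RAE230_2 genechip whose annotation carries 1 of these 8 symbols alone. That gave 11 probesets of the 31042 on the chip, and 8 genes of the 14217 that have at least 1 probeset to themselves. Aqp1 had 2 probesets, Aqp4 had 3 and each of the others had 1. Where 1 probeset had to stand for a gene, it was that with the highest mean over the organs.

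The study profiled 26 somatic organs of 5 male and 5 female Han Wistar-derived rats (AlpkHsdBrlHan:WIST), and testes, epididymis, prostate, ovary and uterus of the sex that has them. No animal was treated, all were of 1 stock, and their age is not given in the sources used here. Each array held RNA of 1 organ of 1 animal, and 256 arrays were used, with 2 to 5 for each organ and sex and 3 to 10 for each organ. Values are log2 signals after GC-RMA normalisation, and the study's threshold for measurable expression was a mean of 6.65 on that scale. A probeset was called different between 2 groups where the adjusted p-value was below 0.05, the difference was above 2-fold and the mean of at least 1 group was above the threshold, with limma and Benjamini-Hochberg adjustment over all 31042 probesets. Levels were compared between organs for 1 probeset at a time, since probesets differ in how brightly they bind.

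The organs with a marker list carried those markers, such as alveolar genes in lung (8 of 8 above the threshold) and hepatocyte genes in liver (7 of 7). Some also carried genes of a neighbour: 10 of 10 fast muscle genes were above the threshold in thyroid and in skin, and acinar genes were above it in duodenum (8 of 8). In 2 arrays Xist and Eif2s3y went against the labelled sex (aorta male 3 and heart male 5), and 2 more carried both transcripts (bone marrow male 5 and bone marrow female 2). Leaving these 4 arrays out changed no call among the comparisons it was tried on. In organ samples, fewer cells of a type and less transcript per cell cannot be told apart.

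Aquaporins are tetramers in which every subunit holds a channel of its own. The classical members pass water alone (Aqp1, Aqp2, Aqp4 and Aqp5), and the aquaglyceroporins also pass glycerol and other small solutes (Aqp3, Aqp7 and Aqp9). Aqp8 passes water and, by itself or in the mitochondrial membrane, ammonia and hydrogen peroxide. In the kidney Aqp1 takes up water in the proximal tubule, and Aqp2 moves to the apical membrane of the collecting duct when vasopressin acts.

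The 8 genes ranged from near-general to single-organ expression. The mean of Aqp1 was above the threshold in 27 of 31 organs, Aqp7 in 12, Aqp4 in 10, Aqp3 in 8, Aqp8 in 4, Aqp9 in 4, and Aqp2 and Aqp5 in 1 each. Of 14209 other genes, each by its probeset of highest mean, 10.5% were above the threshold in exactly 1 organ and 31.3% in 27 or more. Kidney held 5 of the 8 above the threshold (Aqp1, Aqp2, Aqp3, Aqp4 and Aqp7), and jejunum and ileum held 4 each. Over all genes 47.0% were above the threshold in kidney, 48.3% in jejunum and 47.6% in ileum, so 4 of 8 is near the share over all genes. Ovary and pituitary held none.

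**Figure D1:**
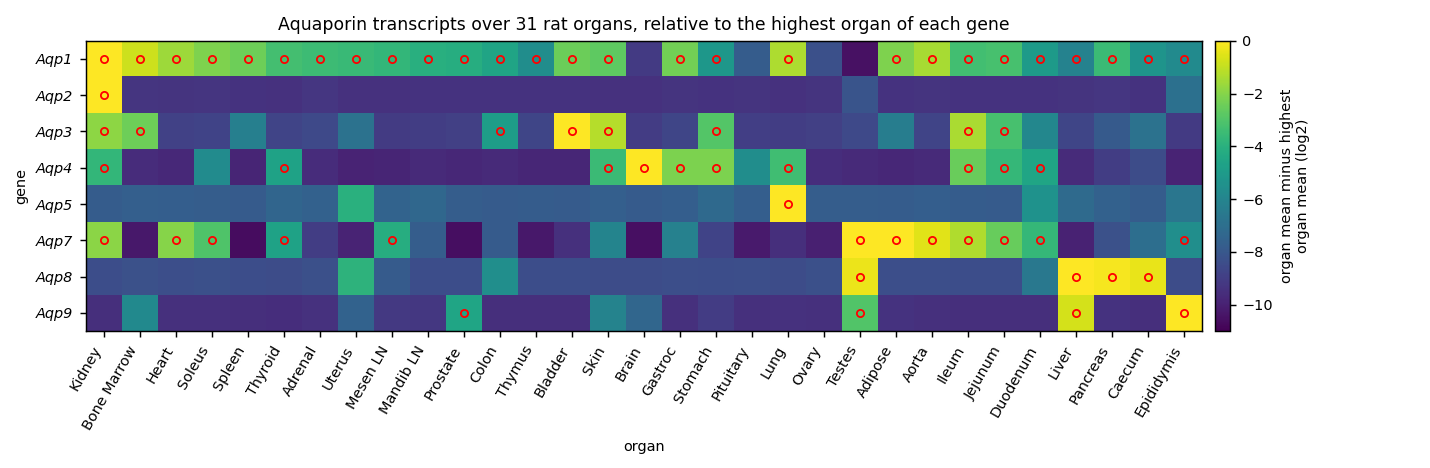
Mean of each aquaporin in each organ minus the mean in its own highest organ (log2, colour), for 8 genes (rows) and 31 organs (columns), with red circles where the organ mean was above the expression threshold of 6.65. Aqp1 was circled in 27 organs, and Aqp2 and Aqp5 in 1 each.

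Aqp1, the constitutive water channel of proximal tubule, red cells and capillary endothelium, was highest in kidney. The 10 kidney arrays lay between 12.50 and 13.15 with a median of 12.95, and the 9 bone marrow arrays, the next organ, between 11.49 and 12.37 with a median of 12.13. The ranges did not overlap, but the difference of 0.83 (SE 0.25, limma, adjusted p = 0.00184) was 1.78-fold and so below the fold threshold, in a contrast where 22.8% of all probesets were called. Lung (11.54 ± 0.17, SD, n = 10), aorta (11.48 ± 0.31, SD, n = 10) and heart (11.28 ± 0.63, SD, n = 7) followed, and their arrays overlapped. Below bone marrow, each organ overlapped with the next in the order of means down to liver (6.79 ± 0.97, SD, n = 9), the lowest of the 27. The 4 organs below the threshold, brain, pituitary, ovary and testes, had means of 2.38 to 5.12. In testes Aqp1 was at 2.38, and the testes minus epididymis difference was -4.80 (SE 0.42, limma, adjusted p = 1.40e-23).

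The second Aqp1 probeset gave nearly the same order of organs (Pearson r = 0.96 and Spearman rho = 0.98 over 31 organ means, a description). It was above the threshold in 24 organs, all of them among the 27. Its highest organ was also kidney (11.88 ± 0.12, SD, n = 10), with aorta next (10.65 ± 0.48, SD, n = 10) and bone marrow lower in the order (9.94 ± 0.62, SD, n = 9), so the place of bone marrow differed between the probesets.

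Aqp1 went with red cell genes in the spleen. The 8 spleen arrays ran from 8.26 to 11.47, the 3 lowest being females 3, 4 and 1 at 8.26, 9.73 and 9.80. In the same 3 arrays Klf1, the erythroid transcription factor, was at 8.53, 8.79 and 9.25, against 10.22 to 11.56 in the other 5. The erythroid list (8 genes measured, Hbb, Alas2, Slc4a1 and Klf1 the highest in spleen) had means of 8.85 to 9.51 in the 3 and 10.39 to 11.06 in the 5. In bone marrow, where the list mean was 12.04, Aqp1 varied little (SD 0.28). The part of red cell precursors in the spleen values was not tested.

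Endothelial genes were above the threshold in the organs that followed kidney and marrow. All 9 endothelial genes measured were above the threshold in lung (Kdr, Tek, Eng and Emcn the highest, list mean 10.62) and in heart (list mean 9.09), and 8 of 9 in aorta (list mean 8.54). In liver the highest Aqp1 array, female 5 at 8.78, also had the highest endothelial list mean, 7.89, against 5.94 to 6.94 in the other 8 arrays. Pecam1, an adhesion molecule of endothelium, was among the 5 genes whose pattern over the organs was most like that of Aqp1 (r = 0.73). The others were Akap13 (r = 0.74), Atxn7, Sav1 and Idh2.

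Aqp2, the vasopressin-regulated channel of the collecting duct, was above the threshold in kidney alone. The 10 kidney arrays lay between 10.15 and 12.17 with a median of 11.61. Epididymis was next at 4.51, a mean that rests on 1 array: male 5 was at 9.45, and males 2 and 3 at 2.03 and 2.05. Testes followed at 3.31 (SD 0.79, n = 4), and the other 28 organs had means of 2.02 to 2.21. Kidney exceeded epididymis by 6.95 (SE 0.29, limma, adjusted p = 4.33e-63, a contrast in which 15.1% of all probesets were called). The fit shared 1 spread over all organs, most of them even in Aqp2. Its SE and p therefore do not measure the spread of the epididymis arrays. Over the arrays left out in turn the difference lay between 5.69 and 9.57. Even the epididymis array of male 5 lay below the lowest kidney array. That epididymis array also differed in other genes, with a mean of 5.24 over 6 male germ cell genes against 8.14 and 8.16 in the other two.

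The collecting duct list, which holds genes of vasopressin action and of sodium and potassium transport, had 10 of 13 genes above the threshold in kidney, with Calb1 at 12.90, Sgk1 at 12.11, Hsd11b2 at 11.23 and Kcnj1 at 10.81. The vasopressin receptor gene Avpr2 was at 2.23 there, below the threshold. All 11 genes measured from other nephron segments were above it, led by Umod, Lrp2, Slc12a1 and Cubn. The 5 genes most like Aqp2 over the organs were Atp6v1b1 (r = 0.99), a proton pump subunit, Bsnd (r = 0.97), a chloride channel subunit, Kcnj1 (r = 0.97), a potassium channel, and the transporters Slc22a6 and Slc22a13 (r = 0.96 each). All 5 were highest in kidney, which the measure largely fixes, since Aqp2 is near its lowest values in most other organs. With Spearman correlation 2 of the 5 were kept.

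Aqp5, a water channel of glands and of the alveolar and airway lining, was above the threshold in lung alone. The 10 lung arrays lay between 9.93 and 10.79 with a median of 10.17. Uterus, the next organ, had 5 arrays at 7.30, 5.71, 7.08, 5.71 and 5.65 (females 1 to 5), with a mean of 6.29 below the threshold. Lung exceeded uterus by 4.03 (SE 0.38, limma, adjusted p = 1.55e-20, with 13.6% of all probesets called), with no overlap. The 5 genes most like Aqp5 were Bpifa5 (r = 0.87), Defb4 (r = 0.85), Cyp2a3, Scgb3a1 and Cxcr1 (r = 0.84 each). All were highest in lung, which the measure largely fixes, since Aqp5 is low in most other organs. Cxcr1 reached a mean of only 4.83 in lung, below the threshold. With Spearman correlation 0 of the 5 were kept.

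Aqp5 varied among the arrays of some other organs. In duodenum the 9 arrays ran from 2.50 to 8.98, and 3 were above the threshold. The highest, female 1, had a mean of 13.30 over 9 stomach mucosa genes, against 2.96 to 9.63 in the others. The order was not the same throughout, since female 5 had a stomach mean of 6.06 with Aqp5 at 2.51 and female 3 a mean of 4.36 with Aqp5 at 5.53. In the mandibular lymph node the salivary gene Bpifa2 reached 14.33 in female 4, and Aqp5 was at 4.30 there, the highest of the 9 arrays. Stomach male 1 was at 7.24 against 2.48 to 2.93 in the other 9 stomach arrays, and liver female 5 was at 6.70. Epididymis male 5, the array high in Aqp2, was at 5.99, against 2.48 and 2.425 in males 2 and 3. Mesenteric lymph node male 5 was at 5.18.

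Aqp2 and Aqp5 are near neighbours in the genome, on the same strand of chromosome 7 (GRCr8), Aqp2 at chr7:132590286-132595321 and Aqp5 at chr7:132601528-132605060, with 6206 bases between them. Aqp6 follows 6008 bases further on, and its probeset was not above the threshold in any organ (highest mean 2.25). The 250 bases before the annotated start of both genes, and of the widely expressed Aqp1 on chromosome 4, are shown because the 3 genes gave such different organ patterns. Sequences and positions are from RefSeq tables (GRCr8, not the build of the chip's design), and the sequences run 5′ to 3′ on the strand of the gene, and are in lower case with capitals for TATAAA and TATATA (forms of the TATA box) and ACGTCA (part of the cAMP response element). Both strands were searched.
Aqp1, chr4:85812534-85812783: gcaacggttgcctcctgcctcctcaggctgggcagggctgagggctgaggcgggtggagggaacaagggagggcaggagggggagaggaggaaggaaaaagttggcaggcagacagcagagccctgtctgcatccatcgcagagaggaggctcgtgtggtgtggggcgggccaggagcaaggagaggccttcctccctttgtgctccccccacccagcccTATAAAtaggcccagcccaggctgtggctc
Aqp2, chr7:132590036-132590285: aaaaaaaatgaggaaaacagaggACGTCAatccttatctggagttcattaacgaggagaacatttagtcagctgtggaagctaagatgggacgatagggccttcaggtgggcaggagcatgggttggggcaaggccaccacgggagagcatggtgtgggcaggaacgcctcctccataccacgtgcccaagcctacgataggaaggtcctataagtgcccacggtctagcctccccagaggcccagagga
Aqp5, chr7:132601278-132601527: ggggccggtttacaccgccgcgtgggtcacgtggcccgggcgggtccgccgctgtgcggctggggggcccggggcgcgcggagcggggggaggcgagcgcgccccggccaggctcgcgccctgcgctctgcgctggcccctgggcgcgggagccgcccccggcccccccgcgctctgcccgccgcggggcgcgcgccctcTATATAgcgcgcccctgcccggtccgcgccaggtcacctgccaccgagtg
In the Aqp1 window TATAAA lies 30 to 25 bases before the start. In the Aqp2 window ACGTCA lies 227 to 222 bases before it, and neither TATAAA nor TATATA is present. Other forms of the TATA box were not searched for, so their absence is not shown. In the Aqp5 window TATATA lies 50 to 45 bases before it. Of 33469 promoters of this length, 12.9% hold TATAAA, 5.45% TATATA and 6.95% ACGTCA. The windows also differ in composition, with 65.2% G and C for Aqp1, 54.4% for Aqp2 and 83.2% for Aqp5, against a median of 51.2% over all promoters, and with 5, 8 and 41 CG pairs. These are descriptions of letters, and no binding was measured here.

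Aqp4, the water channel of astrocyte endfeet, was highest in brain by all 3 probesets. With the probeset of highest mean, the 10 brain arrays lay between 11.17 and 12.76 with a median of 12.27. Gastrocnemius muscle was next (9.03 to 10.60, median 10.09, n = 6), and the difference of 2.17 was called (SE 0.34, limma, adjusted p = 2.96e-09, with 23.8% of all probesets called), with no overlap. Stomach (9.98 ± 1.58, SD, n = 10), ileum (9.63 ± 0.39, SD, n = 10), lung (8.78 ± 1.06, SD, n = 10), skin (8.68 ± 0.41, SD, n = 9), jejunum (8.49 ± 0.49, SD, n = 9), kidney (8.43 ± 0.95, SD, n = 10), duodenum (7.63 ± 1.11, SD, n = 9) and thyroid (7.52 ± 1.20, SD, n = 10) were the other organs above the threshold, each overlapping with the next.

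The 3 Aqp4 probesets differed outside brain. The second was above the threshold in brain (9.28) and gastrocnemius (7.18) only, with stomach just below it at 6.53, and the third in brain (8.65) only. Over the 31 organ means the first correlated with the second at r = 0.90 and with the third at r = 0.58 (descriptions). In ileum, for instance, the first was at 9.63, the second at 6.16 and the third at 3.06. Where each probeset lies in the transcript was not analysed here, and the organs beyond brain and gastrocnemius rest on 1 probeset.

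Brain exceeded pituitary for 3 of the 11 aquaporin probesets, the 3 of Aqp4, where 19.7% of all probesets were called. The differences were 5.59 (SE 0.29), 6.74 (SE 0.28) and 5.68 (SE 0.15), with adjusted p of 1.94e-47, 4.40e-62 and 2.99e-99 (limma). No array of pituitary reached the lowest brain array in any of the 3, and the share of all probesets without overlap is not given here. Of 8 astrocyte genes 5 were called higher in brain, with a median difference of 2.93 (-0.12 over all probesets), and 6 were above the threshold there, S100b, Aldoc, Gja1 and Slc1a3 being the highest. Gfap, the astrocyte filament, was at 11.32 in brain and between 1.94 and 3.16 in the pituitary arrays, where Aqp4 was between 5.35 and 7.23. The whole list had a mean of 6.93 to 7.37 in the pituitary arrays, with 5 of 8 genes above the threshold (S100b at 10.97 and Gja1 at 10.29 the highest). The gene most like Aqp4 over the organs was Rtkn (r = 0.77), followed by Camk2b, Ank3, Slc3a1 and Dbndd2 (r = 0.71 to 0.66).

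Among muscles Aqp4 and Aqp7 ran in opposite directions. Of 11 probesets 3 were called between gastrocnemius, a mostly fast muscle, and soleus, a slow one (2.81% of all probesets), and 3 between gastrocnemius and heart (9.40% of all). Aqp4 was at 9.03 to 10.60 in gastrocnemius, 5.51 to 7.54 in soleus and 2.38 to 2.51 in heart. It was higher in gastrocnemius than in soleus by 3.54 (SE 0.36, limma, adjusted p = 1.83e-17) and than in heart by 7.56 (SE 0.37, limma, adjusted p = 7.85e-52), and a second Aqp4 probeset was called in the same direction in both. Aqp7 was at 5.04 to 7.51 in gastrocnemius, 8.89 to 10.01 in soleus and 9.30 to 11.06 in heart. The gastrocnemius minus soleus difference was -3.12 (SE 0.62, limma, adjusted p = 2.52e-05) and the gastrocnemius minus heart difference -4.15 (SE 0.64, limma, adjusted p = 6.54e-09). In both genes the gastrocnemius range overlapped with neither of the others, while the Aqp7 ranges of soleus and heart overlapped.

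Of 10 fast muscle genes 8 were called higher in gastrocnemius than in soleus, with a median difference of 2.45 (0.0052 over all probesets), and 8 of 8 slow muscle genes were called higher in soleus, with a median of -1.65. In thyroid, Aqp4 was lowest in male 5 and female 3 (5.80 and 5.81), whose fast muscle means were 11.73 and 10.60, and between 8.43 and 8.88 in the 4 arrays with the highest fast muscle means (13.10 to 13.47). Skin, where Aqp4 was above the threshold, had a fast muscle mean of 13.05. The part of muscle in the thyroid and skin values was not tested. In the dystrophin complex, which anchors Aqp4 in muscle and in astrocytes, 4 of 5 genes measured were above the threshold in gastrocnemius (Sgca, Sgcb, Dag1 and Dtna) and 3 of 5 in brain, and 0 of 5 were called between gastrocnemius and soleus.

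**Figure D2:**
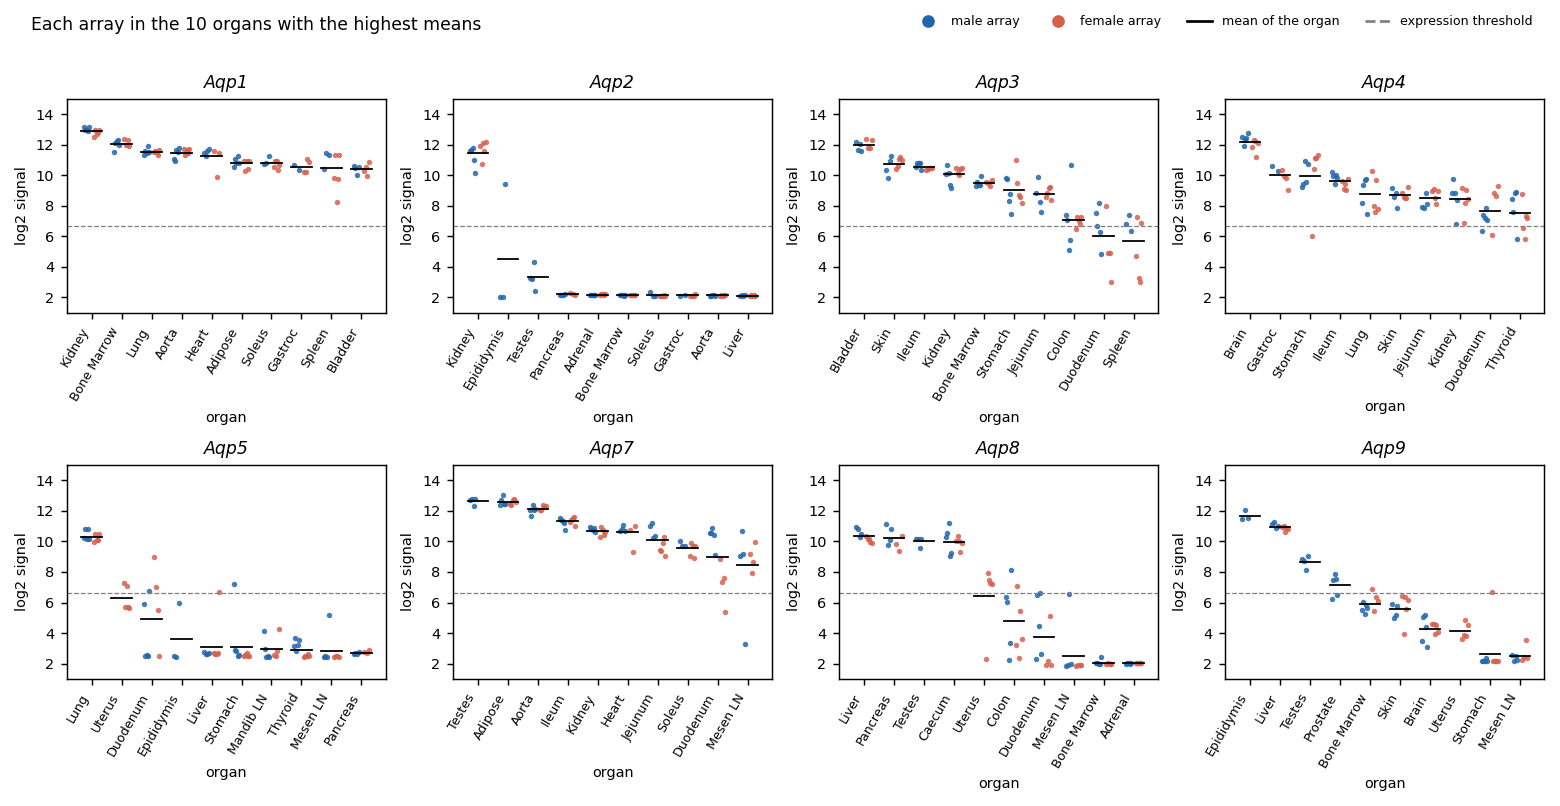
Log2 signal of each array (points, males and females in 2 colours) in the 10 organs with the highest mean of each aquaporin, with black bars for the organ mean and a dashed line for the expression threshold of 6.65. The fall from the first organ to the second is steep for Aqp2 (11.46 to 4.51) and Aqp5 (10.32 to 6.29) and absent for Aqp7 (12.63 to 12.59) and Aqp8 (10.34 to 10.20).

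Aqp8 was above the threshold in liver, pancreas, testes and caecum, at means that differed little. Liver arrays lay between 9.89 and 10.95 (n = 9), pancreas between 9.38 and 11.12 (n = 7), testes between 9.54 and 10.17 (n = 4) and caecum between 9.01 and 11.21 (n = 10). Each of these ranges overlapped with the next of the 4, and liver exceeded pancreas by 0.14 (SE 0.36, limma, adjusted p = 0.754), where 17.5% of all probesets were called. The sign of that difference changed with quantile normalisation (-0.55). Uterus, colon and duodenum followed at 6.44, 4.79 and 3.73, and the other 24 organs had means of 1.89 to 2.49.

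In uterus 4 arrays lay between 7.24 and 7.94 and female 1 at 2.30, so the mean of 6.44 was below the threshold. Female 1 was also apart in the oestrogen-responsive list, chosen after the values were seen, with a mean of 8.49 against 10.48 to 10.56. Complement C3 was at 6.60 in it against 11.60 to 12.50. Other genes of the list were nearly even over the uterus arrays, Pgr between 10.30 and 10.90 and Ckb between 10.63 and 11.30. Female 1 had the highest Aqp5 of the 5, 7.30. The uterus arrays also varied in male germ cell and keratinocyte genes, Prm1 from 3.78 to 12.71 and Krt14 from 2.55 to 13.32. The stage of the cycle is not given in the sources used here, and its part was not tested. In the mesenteric lymph node male 4 was at 6.58 and the other 7 arrays between 1.86 and 1.95. Villin (Vil1), an epithelial gene of the gut, was at 11.32 in that array and between 2.12 and 2.71 in the others.

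The genes most like Aqp8 over the organs were Slc26a8 (r = 0.72), highest in testes at 10.59, and Homez, Prtg, Fgf21 and Hsd17b13 (r = 0.70 to 0.67). Of these Homez, Prtg and Fgf21 were below the threshold in every organ. Hsd17b13, a lipid droplet protein, was at 11.67 in liver and 11.46 in pancreas.

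Aqp3 and Aqp7 are neighbours too, with 52546 bases between them on chromosome 5 (GRCr8), Aqp7 at chr5:60968495-60982618 and Aqp3 at chr5:61035165-61040683. Among the aquaglyceroporins Aqp3, a channel of basolateral membranes in epithelia, was highest in bladder, whose 8 arrays lay between 11.56 and 12.37 with a median of 11.92. Skin was next, with 9 arrays between 9.84 and 11.27, and did not overlap with bladder. The difference of 1.22 was 2.33-fold (SE 0.44, limma, adjusted p = 0.0216, with 9.83% of all probesets called). It was not called in males alone (1.27, adjusted p = 0.132) or in females alone (1.20, adjusted p = 0.16), nor without female 2 (1.14, adjusted p = 0.0544). Ileum (10.55 ± 0.19, SD, n = 10), kidney (10.08 ± 0.48, SD, n = 10), bone marrow (9.51 ± 0.22, SD, n = 9), stomach (9.01 ± 1.01, SD, n = 10), jejunum (8.74 ± 0.66, SD, n = 9) and colon (7.10 ± 1.45, SD, n = 10) followed, each overlapping with the next.

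The organs high in Aqp3 did not share keratinocyte genes to the same extent. All 5 measured were above the threshold in skin (Krt10 at 14.77, Krt14 at 14.06, Krt5 at 13.40 and Krt1 at 12.71), and 2 of 5 in bladder (Krt5 at 9.44 and Krt14 at 7.39). In stomach the keratinocyte mean ran from 3.28 to 12.86, and the highest array, female 1, had the highest Aqp3 (10.98 against 7.47 to 9.78) and the lowest Aqp4 (6.05 against 9.20 to 11.30). In the other arrays Aqp3 did not follow the list, male 1 being next in Aqp3 (9.78) at a keratinocyte mean of 6.03 and male 5 lowest (7.47) at 9.01. Aqp9 was at 6.67 in stomach female 1 and at 2.15 to 2.38 in the other 9 stomach arrays. The rat stomach has a squamous forestomach and a glandular part, and the share of each in an array was not tested.

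In bone marrow, where erythroid genes were high, Aqp3 was even (9.31 to 9.98). In spleen it was at 2.98, 3.30 and 4.70 in females 4, 3 and 1, the 3 arrays of low Klf1, and at 6.37 to 7.41 in the other 5. In adipose tissue, whose mean of 5.62 was below the threshold, the arrays ran from 2.80 to 8.26, and female 4, the highest, also had the highest Krt5 (6.55 against 2.31 to 5.09). Between kidney and bladder 6 of 11 aquaporin probesets were called (15.9% of all). Aqp2, Aqp7, Aqp4 and both of Aqp1 were higher in kidney, by 9.40, 7.54, 6.09, 2.49 and 2.79, and the kidney minus bladder difference of Aqp3 was -1.88 (SE 0.43, limma, adjusted p = 7.75e-05). The genes most like Aqp3 were Degs2 (r = 0.75), Itprid2, Als2cl, Scin and C1qtnf3 (r = 0.71 to 0.68).

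Aqp7, the glycerol exit channel of adipocytes and a channel of germ cells and of the proximal tubule, had the highest means in testes and adipose tissue. The 4 testis arrays were at 12.70, 12.77, 12.29 and 12.76 (males 1 to 4), and the 10 adipose arrays lay between 12.38 and 13.01 with a median of 12.52. These ranges overlapped, and the difference was 0.04 (SE 0.68, limma, adjusted p = 0.979), where 29.4% of all probesets were called. With the animal as a replicate block it was -0.12. Aorta (12.12 ± 0.22, SD, n = 10) overlapped with adipose tissue too, and did not overlap with ileum (11.31 ± 0.25, SD, n = 10). Kidney (10.70 ± 0.20, SD, n = 10), heart (10.62 ± 0.60, SD, n = 7), jejunum (10.09 ± 0.73, SD, n = 9), soleus (9.59 ± 0.40, SD, n = 8), duodenum (8.96 ± 1.86, SD, n = 9), mesenteric lymph node (8.48 ± 2.25, SD, n = 8), thyroid (7.98 ± 0.95, SD, n = 10) and epididymis (7.08 ± 1.30, SD, n = 3) were the others above the threshold.

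Organs high in Aqp7 differed in their adipocyte genes. In aorta 5 of 6 adipocyte genes were above the threshold and Adipoq, the adipocyte hormone adiponectin, lay between 12.26 and 12.61. In testes Adipoq was between 2.38 and 3.47, and in heart between 2.39 and 2.80. All 10 glycerol handling genes were above the threshold in adipose tissue (Lpl, Plin1, Gpd1 and Pnpla2 the highest) and in aorta (Gpd1, Lpl, Pnpla2 and Dgat2 the highest). In heart 6 of 10 were, led by Lpl and then Pnpla2, the adipose triglyceride lipase, at 10.54. The genes most like Aqp7 over the organs were Tmem120a (r = 0.84), Pnpla2 (r = 0.76), Cpt1b (r = 0.73), Afg1l and Mtch2 (r = 0.71 each). Tmem120a had the same 2 leading organs, testes at 9.22 and adipose tissue at 9.11.

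In the lymph nodes Aqp7 went with the adipocyte genes array by array. In the mesenteric node male 5 was at 3.30, with an adipocyte mean of 6.32, and the other 7 arrays lay between 7.91 and 10.65, with adipocyte means of 8.94 to 11.43. In the mandibular node the 2 highest arrays, males 3 and 5 at 8.05 and 7.87, had the 2 highest adipocyte means, 8.91 and 9.29. The mandibular minus mesenteric difference was -3.61 (SE 0.56, limma, adjusted p = 1.08e-07), although the arrays overlapped, and Aqp7 was the 1 called of 11 aquaporin probesets (1.13% of all). It was not called in males alone or in a fit of the 2 nodes only. In the same contrast 5 of 6 adipocyte genes were called higher in the mesenteric node, with a median difference of -2.75 (0.0285 over all probesets), and 8 of 10 glycerol handling genes. The part of fat around the nodes was not tested.

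**Figure D3:**
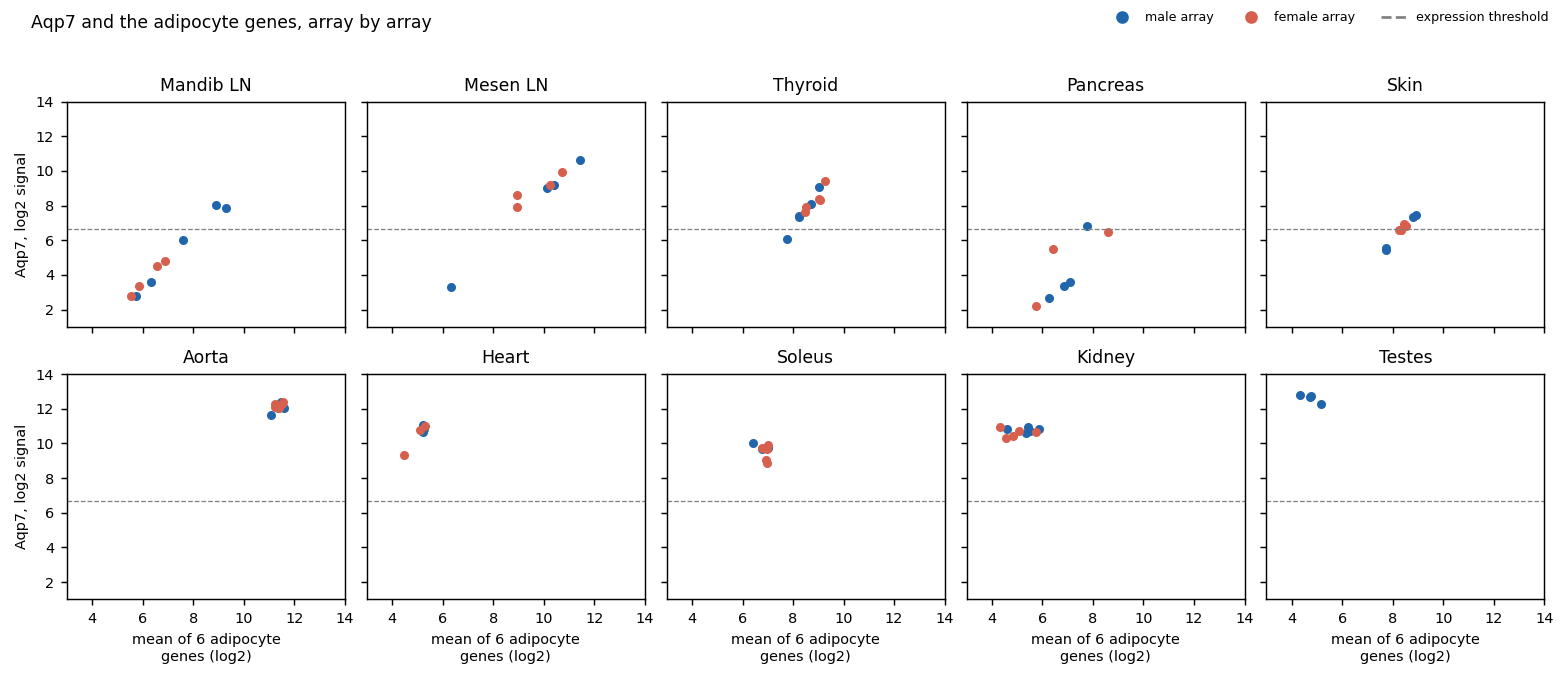
Aqp7 (log2 signal, vertical) against the mean of 6 adipocyte genes (log2, horizontal) for each array (males and females in 2 colours) in 10 organs, with a dashed line at the expression threshold of 6.65. In the lymph nodes Aqp7 is high only where the adipocyte mean is, as in mesenteric male 2 (10.65 and 11.43), and in testes and heart it is high at adipocyte means of 4.34 to 5.30.

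Aqp9, the hepatocyte channel for glycerol and urea, was highest in epididymis, where the 3 arrays were at 11.45, 12.07 and 11.51. Liver followed, with 9 arrays between 10.60 and 11.25, then testes with 4 between 8.12 and 9.02, then prostate with 5 between 6.23 and 7.87. No range overlapped with the next. Epididymis exceeded liver by 0.73, which was 1.65-fold and below the fold threshold (SE 0.27, limma, adjusted p = 0.0171), where 18.6% of all probesets were called. Bone marrow at 5.90 and the other 26 organs were below the expression threshold. In bone marrow, where 5 of 5 neutrophil genes (chosen after the values were seen) were above it, the 9 arrays ran from 5.25 to 6.91. The lowest, male 3, had the highest neutrophil mean, 12.91. In spleen, where neutrophil genes had means from 3.49 (Mmp8) to 12.06 (S100a9), Aqp9 lay between 2.15 and 2.23. The part of neutrophils in the marrow values was not tested. The genes most like Aqp9 were Cyp4f4 (r = 0.84), Pemt (r = 0.79), Sult1e1, Xkr8 and Slc13a4 (r = 0.76 to 0.73), and all but Xkr8 had liver first and epididymis second.

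In the male tract some aquaporins were higher in testes and others in epididymis. Of 11 probesets 4 were called (29.0% of all), a count near the share over all probesets. Aqp7 was higher in testes by 5.55 (SE 0.88, limma, adjusted p = 5.35e-09) and Aqp8 by 8.11 (SE 0.55, limma, adjusted p = 1.35e-33). Aqp9 and Aqp1 were lower in testes, with differences of -3.0 (SE 0.31, limma, adjusted p = 1.57e-17) and -4.80. Aqp7, Aqp8 and Aqp9 were also the 3 called between testes and ovary (28.1% of all), all higher in testes, by 10.04, 8.0 and 6.47. That count too is near the share over all probesets. All 6 male germ cell genes, chosen after the values were seen, were called higher in testes in both contrasts. In epididymis, male 5 had the lowest germ cell mean (5.24) and the lowest Aqp7 (5.63 against 7.44 and 8.16) and adipocyte mean (4.71 against 6.32 and 7.56), while its Aqp9 of 11.51 lay between the other two.

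Along the gut the levels changed in steps, although jejunum and ileum had the same genes above the threshold (Aqp1, Aqp3, Aqp4 and Aqp7). Between stomach and duodenum 3 of 11 probesets were called (9.89% of all): Aqp3 and Aqp4 were higher in stomach by 2.96 (SE 0.42) and 2.35 (SE 0.30), and the Aqp7 difference was -5.12 (SE 0.53), higher in duodenum, with adjusted p of 2.23e-10, 3.68e-12 and 1.89e-17 (limma). From duodenum to jejunum 3 of 11 were called (1.85% of all), namely both Aqp1 probesets and Aqp3, all higher in jejunum, with differences of -1.82, -1.76 and -2.69. From jejunum to ileum 2 of 11 were called (2.08% of all), Aqp3 and Aqp4, higher in ileum, with differences of -1.81 (SE 0.42) and -1.14 (SE 0.30), but 0 of 11 were in females alone.

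Of these 5 steps, that at the end of the small intestine had the most calls. Between ileum and caecum 6 of 11 probesets were called (4.45% of all). Aqp4 was higher in ileum by 5.90 (SE 0.29), Aqp7 by 5.69 (SE 0.52), Aqp3 by 5.45 (SE 0.41) and Aqp1 by 1.97 (SE 0.24) and 1.71 (SE 0.28), while the Aqp8 difference was -8.04 (SE 0.32), higher in caecum. The adjusted p of these lay between 6.38e-64 and 6.27e-08 (limma), and no array of one segment overlapped with the other in any of the 6. Both Aqp1 probesets are among the 6, and the share of all probesets without overlap is not given here. Ileum arrays of Aqp8 had a mean of 1.94, at the lower end of the scale, where values depend on the background step.

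Between caecum and colon 2 of 11 were called (1.84% of all). Aqp8 was lower in colon by 5.19 (SE 0.32, limma, adjusted p = 3.69e-36), and Aqp3 was higher there, with a difference of -1.99 (SE 0.41, limma, adjusted p = 5.98e-05), with overlap. In a fit of the 2 segments only, 1 of the 2 was called, as in females alone. The colon arrays of Aqp8 were widely spread, from 2.27 in male 3 and 2.37 in female 3 to 7.09 in female 2 and 8.12 in male 5, with both sexes at both ends. The SE of 0.32, from the fit over all organs, does not measure this spread. Over the same arrays the mean of 10 colonocyte and villus genes lay between 10.88 and 11.18. The list mean in caecum was 11.40, and Car1, Lgals4, Vil1 and Krt20 were its highest genes there.

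**Figure D4:**
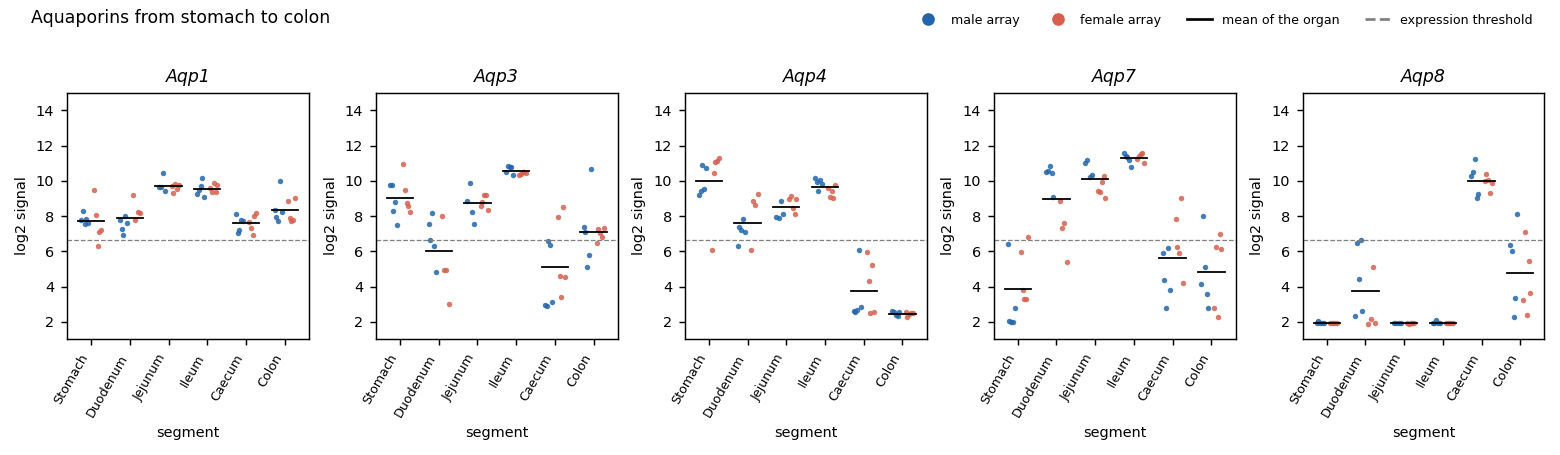
Log2 signal of 5 aquaporins in each array (points, males and females in 2 colours) of 6 gut segments from stomach to colon, with black bars for the segment mean and a dashed line for the expression threshold of 6.65. Aqp8 goes from 1.94 in ileum to 9.98 in caecum and 4.79 in colon, while Aqp3, Aqp4 and Aqp7 are above the threshold in ileum and below it in caecum.

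Differences between the sexes were tested for 11 probesets in 26 organs, 286 combinations in all, of which 89 had a mean above the threshold in at least 1 sex. Only 1 was called, 0.312% being the share over all probesets and organs. It was Aqp7 in duodenum, an organ where 2.78% of all probesets were called. Of the 89, 11 had an unadjusted p below 0.05 (limma), 6 higher in males and 5 in females, and 7 differed more than 2-fold. The 11 hold both Aqp1 probesets in skin and in duodenum. No share over all probesets is given for these counts, so they cannot show more differences than other genes have.

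In duodenum Aqp7 was at 10.52, 10.55, 10.86, 10.42 and 9.11 in males 1 to 5, and at 8.83, 7.33, 7.61 and 5.41 in females 1, 2, 3 and 5. Every male array was above every female array. The difference was 3.00, or 7.98-fold (SE 0.67, limma, adjusted p = 0.0304). It was not called by the methods' t-test with the same adjustment (adjusted p = 0.0576) or with the replicate number as a block (2.96, adjusted p = 0.0566), although male and female of 1 number are different animals. It was also not called when any of males 1, 2, 3 or 4 or females 2 or 3 was left out (adjusted p of 0.0637 to 0.0781), and over all arrays left out in turn the difference lay between 2.37 and 3.51.

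The difference was larger in duodenum than in adipose tissue, the somatic organ with the highest Aqp7, by 2.97 (SE 0.66, limma, adjusted p = 0.0152, where 5.11% of all probesets passed on adjusted p alone). That adjusted p was 0.0511 in 1 fit over all groups, 0.0543 without male 1 and 0.0512 without male 4. Duodenum was taken because the sex difference was called there, and the same duodenum arrays enter both tests. The comparison with adipose tissue is therefore not independent of that call. In jejunum, the next segment, males were at 11.03, 11.19, 10.21 and 10.35 and females at 9.43, 9.39, 9.92, 10.29 and 9.02. The jejunum difference of 1.08 (SE 0.31, limma, adjusted p = 0.282) was not called, and the ranges overlapped. In ileum the difference was -0.09 (SE 0.16, limma, adjusted p = 0.823), and in kidney 0.18 (SE 0.12, limma, adjusted p = 0.407).

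Other genes of the lipid and glycerol pathway were called in the same organ. Of 10 glycerol handling genes 6 were higher in males and 0 in females, with a median difference of 1.06 (0.0084 over all probesets). Glycerol kinase (Gk) was higher by 1.73 (SE 0.27, limma, adjusted p = 0.00904), the glycerol-3-phosphate dehydrogenases Gpd1 and Gpd2 by 1.48 and 1.11, the lipases Pnpla2 and Lipe by 1.40 and 1.48, and Dgat2, which makes triglyceride, by 1.00. Of the remaining 4, Mgll, Plin1, Pck1 and Lpl differed by -0.45, -0.46, -0.18 and -0.67. Of 6 adipocyte genes 2 were called, Lipe and Cidec, higher in males by 1.48 and 1.36, and the median difference was -0.02. Adipoq, which was not called, was at 2.30 to 2.86 in males, at 6.80 in female 1 and at 2.35 to 2.73 in the other females. Aqp11, an aquaporin of intracellular membranes outside the 8, was higher in males by 1.56 (SE 0.18, limma, adjusted p = 0.00383). In kidney 2 of the 10 glycerol genes were called, both lower in males (Gk -1.08 and Gpd2 -1.51), where 1.85% of all probesets were called.

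Lists of other cell types were examined in the same arrays. Apoc3 and Apoa1 of the hepatocyte list were called higher in males by 2.62 and 1.52. Sgk1 and Prkaca of the collecting duct list were higher by 2.52 and 1.00. Dtna of the dystrophin complex was lower in males, with a difference of -1.11. Of 10 colonocyte and villus genes 2 were called higher in males, Alpi, the brush border alkaline phosphatase, by 2.03 and Krt20 by 1.52, with Alpi at 13.30 to 13.94 in males and 10.79 to 12.61 in females. The list means were 9.94 to 10.74 in males and 9.59 to 9.72 in females, without overlap. Vil1, Lgals4, Fabp2, Cdx1 and Cdx2 differed by 0.63, 0.44, 1.28, 1.13 and 0.24. Car1, Car4 and Slc26a3 went the other way, by -0.38, -0.20 and -0.04. The stomach mucosa list, chosen after the values were seen, had means of 2.96 to 9.63 in males and 4.36 to 13.30 in females, with 0 of 9 genes called and with Atp4a and Atp4b, the acid pump, between 1.96 and 2.19 in males and up to 11.68 in females. The differences of these pump genes were 0.0218 and 0.0132 without the 4 arrays of high stomach mean named next. Those arrays were picked by the mean of the whole list, pump genes included. Gkn1, Gkn2, Tff1, Tff2, Muc5ac and Pgc still differed there by -1.99, -2.52, -2.01, -4.24, -1.82 and -3.25, lower in males, and Gast by 0.20. None of them was called, although the adjusted p of Pgc was 0.0251 (limma). Of 8 acinar genes of the pancreas 0 were called, with list means of 11.45 to 13.40 in males and 10.17 to 12.85 in females. Without the 4 arrays whose stomach mean was above the threshold (males 1 and 5 and females 1 and 2), the Aqp7 difference was 4.10 (limma, adjusted p = 0.0496), with 3 males and 2 females left. Of the 6 glycerol genes Gk, Gpd1, Pnpla2 and Dgat2 were called there too. The part of the villus genes in the Aqp7 difference was not tested.

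**Figure D5:**
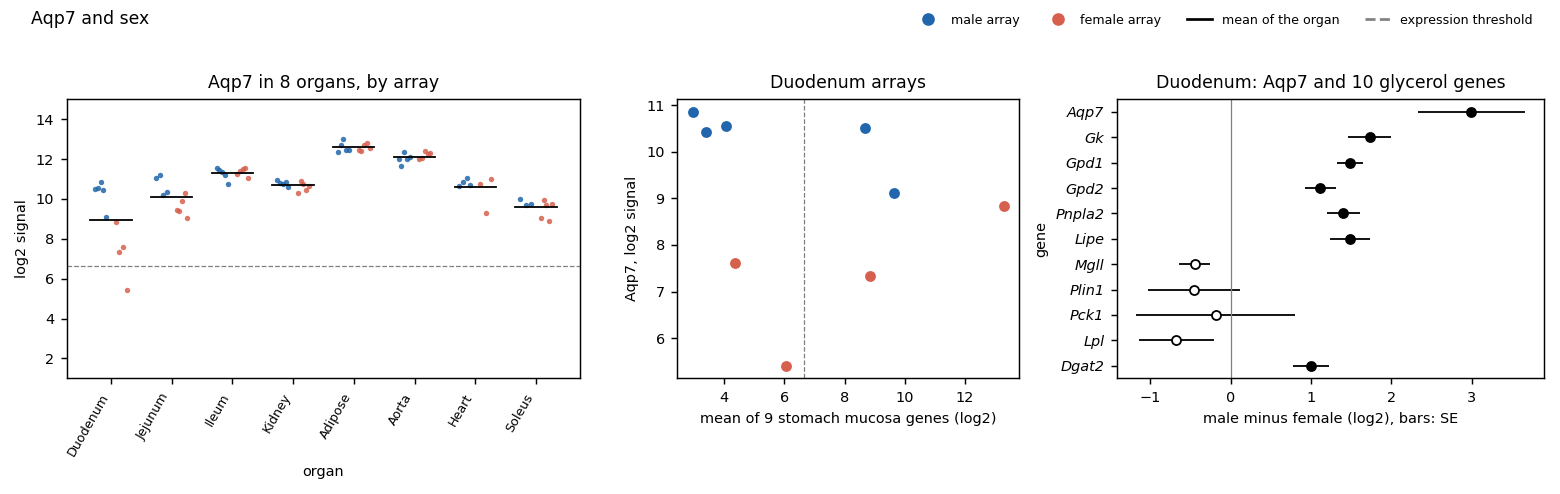
Left, Aqp7 (log2 signal) in each array of 8 organs, males and females in 2 colours, with black bars for organ means and a dashed line at 6.65, middle, Aqp7 against the mean of 9 stomach mucosa genes (both log2) in the 9 duodenum arrays, and right, male minus female difference (log2, bars are SE) in duodenum for Aqp7 and 10 glycerol handling genes, filled where called. The 5 male duodenum arrays (9.11 to 10.86) lie above the 4 female arrays (5.41 to 8.83).

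The other 7 genes had no called sex difference in any organ. The male minus female differences of Aqp1 in skin were -0.71 and -0.78 with its 2 probesets (limma, adjusted p of 0.186 and 0.275), and in duodenum -0.83 and -0.89 (limma, adjusted p of 0.169 and 0.149). Aqp8 in liver was higher in males by 0.51 (SE 0.16, limma, adjusted p = 0.195). Aqp2 in kidney and Aqp5 in lung, each in its 1 organ, differed by -0.49 (SE 0.38, limma, adjusted p = 0.538) and 0.18 (SE 0.18, limma, adjusted p = 0.724).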

How the data were processed

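The authors hybridised RNA of single organs to RAE230_2 genechips and deposited log2 signals after GC-RMA normalisation in 1 table, used as deposited. Each array is 1 animal, so the spread is between animals, and the number of arrays limits the precision. Of the probesets, 20826 have 1 gene symbol, 436 several and 9780 none. Differences were fitted with limma 3.58.1 in R 4.3.3, for organs in 1 fit over organs and for the sexes within each organ, and the code was tested on simulated data. The fit over organs shares 1 spread among all organs. Its SE and p do not measure the spread within the organs compared where that differs. The text names all 8 members and every organ above the threshold, except for Aqp1, where the organs below it are named. Of the marker lists it names some genes only, often the 4 highest in an organ. All 8 members matched the RefSeq gene table and 7 the promoter table (Aqp7 had no entry). Genes alike were the 5 with the highest Pearson r over the 31 organ means, and the highest organ was set against the next in the order of means. A replicate number within a sex was taken as 1 animal across organs. Deviations of arrays of 1 number and sex in different organs had a median correlation of 0.0763, against -0.0227 between numbers. Males and females of 1 number are different animals. Their arrays of the same organ had a median of 0.0225, against -0.0297 for other numbers. A shared number thus went with a higher correlation without a shared animal, and these values cannot show that a number marks 1 animal. Members and lists were chosen with earlier results of these data known. The stomach mucosa, oestrogen-responsive, germ cell and neutrophil lists, and the settings without the 4 arrays of mismatched or mixed sex transcripts and without duodenum arrays with stomach markers, were chosen after values were seen.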

Additional observations from a re-analysis of the deposited data

Results flagged for a closer look

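Of 115 combinations of an aquaporin with a group of 4 or 5 arrays of 1 organ and sex and a mean above the threshold, 8 held 1 array far from the rest, testes male 3 being counted for 2 genes, and chance gives about 1 in 20. Aqp1 was at 9.99 in colon male 4 (the others 7.72 to 8.32), at 8.78 in liver female 5 (6.65 to 7.16), at 9.08 in thyroid male 1 (9.62 to 9.81) and at 9.67 in uterus female 3 (9.22 to 9.34). Aqp4 was at 6.05 in stomach female 1 (10.43 to 11.30 in the other females), the array with the highest keratinocyte mean. Aqp7 was at 9.11 in duodenum male 5 (10.42 to 10.86) and at 12.29 in testes male 3 (12.70 to 12.77). Aqp8 was at 9.54 in testes male 3 too (10.14 to 10.17).

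The male minus female difference of Aqp7 was larger in duodenum than in adipose tissue by 2.97 (limma, adjusted p = 0.0152). Duodenum was taken because the sex difference was called there in the same arrays, so this test is not independent of that call.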

How the results depend on the processing

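Of 429 values under alternative settings, 388 kept their direction and their side of the threshold. The count of aquaporin probesets called between the sexes was 0 at an adjusted p threshold of 0.01, by the methods' t-test and with a replicate block, and 2 in 1 fit over all groups (Aqp1 in liver added). It ran from 0 to 2 as arrays of 1 animal number and sex were left out. The Aqp7 difference in duodenum was 3.00 by the t-test (adjusted p = 0.0576) and at the threshold of 0.01 (adjusted p = 0.0304), and 2.96 with the replicate block (adjusted p = 0.0566). It lay between 2.37 and 3.51 over the arrays left out. Its difference from adipose tissue was 2.97 in 1 fit over all groups (adjusted p = 0.0511), and 2.35 to 3.52 over the arrays left out.

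The Aqp3 difference between bladder and skin was 1.27 in males (adjusted p = 0.132) and 1.20 in females (adjusted p = 0.16), and 1.14 to 1.34 over the arrays left out. That of Aqp7 between testes and adipose tissue turned to -0.12 with the replicate block, and ran from -0.0228 to 0.20 over the arrays left out, being -0.01 without male 1 and -0.0228 without male 4. That of Aqp8 between liver and pancreas turned to -0.55 after quantile normalisation. Without the expression threshold the calls were 7 between stomach and duodenum, 6 between duodenum and jejunum, 5 between brain and pituitary and 5 between testes and ovary. Calls fell to 0 between jejunum and ileum in females. Between caecum and colon 1 was called in a fit of the 2 organs and in females. Between the lymph nodes 0 were called in a fit of the 2 organs and in males. Of the 40 genes named as alike, 10 were kept with Spearman correlation and 16 over the 26 somatic organs. With Spearman correlation 0 of 5 were kept for each of Aqp5, Aqp8 and Aqp9. The cause of these changes was not tested. The replicate block changed no other call.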

Other observations

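Of 4 other aquaporins measured, Aqp12a and Aqp11 had clear levels. Aqp12a, a channel of pancreatic acinar cells, had a mean of 13.03 in pancreas. Aqp11, an intracellular channel, was at 12.14 in testes. Aqp6 and Mip, the lens channel, were not above the threshold in any organ, and Aqp10 was not measured here. In duodenum Aqp8 ran from 1.90 to 6.61, with males 2 and 4 at 6.48 and 6.61 and males 1 and 5 at 2.31 and 2.61.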
